A study of Mus musculus with 48 samples.

Results

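The transcripts described here come from 43 genes that dividing cells need, 27 that act in mitosis and 16 that act in S phase. The genes were chosen by name for their known roles, with earlier results of these data known. They were read from every probe whose gene name in the scanner files is one of the 43, which gave 57 probes of 55681 on the array. The brightest probe of a gene stood for it, so that the set holds 43 of 22290 genes with a RefSeq name. Expression was measured in 48 samples of male mouse pups, 6 in each of 8 groups. The pups received intraperitoneal injections of IL1B, at 10 ng per g, or of PBS from P1 to P4 and a last one at P5. IL1B is an inflammatory cytokine, and these injections serve as a model of systemic inflammation in the perinatal period. O4+ cells (oligodendrocyte progenitors of the late stage and oligodendrocytes not yet mature) and CD11B+ cells (microglia and other myeloid cells) were taken by magnetic sorting at P5 or at P10. The 8 groups were therefore O4+ P5 PBS, O4+ P5 IL1B, O4+ P10 PBS, O4+ P10 IL1B and the same groups of CD11B+ cells. The labels give swiss mice and collection at 2 h from the final injection for the P5 groups, whereas the methods of the study name OF1 mice and a longer interval. The descriptions of the P10 samples carry P5 as the age and extend the injections to P10, against their titles, stage and treatment protocol, which were followed here, and every comparison that involves P10 rests on that reading. Per the methods, CD11B+ cells were recovered from what remained after the O4+ sort of the same animals and cortices were pooled, so that a sample is not 1 animal.

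A dividing cell first copies its DNA in S phase and then parts the copies in mitosis. In late G1 and S phase, E2F factors turn on genes for the replication machinery. The MCM proteins form the helicase ring that is loaded on origins by CDC6 and CDT1, PCNA is the sliding clamp of the DNA polymerases, and ribonucleotide reductase, of which RRM1 and RRM2 are the subunits, makes deoxynucleotides. In G2 and mitosis, cyclin B with CDK1 starts the division, the checkpoint kinases hold it until all chromosomes are attached, CDC20 and UBE2C then let cyclin B and securin be destroyed, and kinesins build the spindle and the midzone. In the postnatal cortex, oligodendrocyte progenitors divide until they differentiate, and microglia also multiply in these days.

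Genes of both phases are known to carry different control elements. E2F factors bind E2F sites, while the DREAM and MuvB complexes and NF-Y act through the cell cycle genes homology region (CHR) and the CCAAT box. Promoters in RefSeq, from 250 bases before to 50 bases after the transcription start in the GRCm38.p6 build, were held for 36 of the 43 genes. The letters searched on both strands were TTTCCCGC, TTTCGCGC, TTTGCCGC and TTTGGCGC for an E2F site, TTTGAA for the CHR and CCAAT for the CCAAT box. None of these letter strings contains another, but an E2F match on one strand may overlap one on the other. Promoters of 5 genes are shown with capitals for every match, those of Cdc20 and Kif11 for a CHR without an E2F site, those of Mcm5 and Mcm6 for the reverse, and that of Cdk1 because it holds both. Those of Cdk1 (chr10:69352863-69353162, minus strand), Cdc20 (chr4:118437294-118437593, minus strand) and Kif11 (chr19:37376132-37376431, plus strand) belong to mitosis genes. Those of Mcm5 (chr8:75109259-75109558, plus strand) and Mcm6 (chr1:128359656-128359955, minus strand) belong to S-phase genes.
Cdk1: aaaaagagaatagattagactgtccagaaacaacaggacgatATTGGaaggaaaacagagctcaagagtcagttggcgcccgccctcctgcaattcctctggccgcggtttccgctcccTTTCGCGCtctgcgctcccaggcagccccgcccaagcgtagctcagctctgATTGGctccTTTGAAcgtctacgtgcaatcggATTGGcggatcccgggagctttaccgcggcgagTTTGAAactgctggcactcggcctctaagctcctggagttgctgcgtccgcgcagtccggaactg
Cdc20: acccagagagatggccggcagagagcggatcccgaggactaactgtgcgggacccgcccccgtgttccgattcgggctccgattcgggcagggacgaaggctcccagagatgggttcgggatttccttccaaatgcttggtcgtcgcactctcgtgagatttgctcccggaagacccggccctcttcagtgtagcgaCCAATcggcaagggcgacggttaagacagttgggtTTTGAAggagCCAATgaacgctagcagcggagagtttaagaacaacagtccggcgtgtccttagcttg
Kif11: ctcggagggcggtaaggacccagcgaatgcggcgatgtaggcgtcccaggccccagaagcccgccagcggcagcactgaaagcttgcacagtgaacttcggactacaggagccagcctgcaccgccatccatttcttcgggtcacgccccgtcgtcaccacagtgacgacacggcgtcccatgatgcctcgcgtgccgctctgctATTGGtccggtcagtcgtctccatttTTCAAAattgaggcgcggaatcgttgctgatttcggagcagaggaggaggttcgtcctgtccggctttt
Mcm5: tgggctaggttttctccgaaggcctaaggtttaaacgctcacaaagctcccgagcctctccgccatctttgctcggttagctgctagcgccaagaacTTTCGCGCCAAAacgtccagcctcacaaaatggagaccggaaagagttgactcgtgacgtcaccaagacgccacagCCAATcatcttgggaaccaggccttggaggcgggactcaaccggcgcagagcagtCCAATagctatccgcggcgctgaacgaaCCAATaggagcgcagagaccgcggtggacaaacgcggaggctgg
Mcm6: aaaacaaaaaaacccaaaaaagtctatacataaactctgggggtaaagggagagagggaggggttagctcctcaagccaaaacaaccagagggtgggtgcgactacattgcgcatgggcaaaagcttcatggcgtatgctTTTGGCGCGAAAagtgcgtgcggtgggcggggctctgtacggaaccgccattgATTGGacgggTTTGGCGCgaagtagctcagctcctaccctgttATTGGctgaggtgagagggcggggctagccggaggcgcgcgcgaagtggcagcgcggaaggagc

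The CHR letters stood in a promoter of 16 of 23 mitosis genes (69.6%) and of 1 of 13 S-phase genes (7.69%), that of Mcm2, against 20.2% of the 27025 genes with a promoter. An E2F site was present for 1 of 23 mitosis genes (4.35%), Cdk1, and for 6 of 13 S-phase genes (46.2%), against 2.6% of all genes. Those 6 were Mcm3, Mcm5, Mcm6, Mcm7, Cdc6 and Cdt1. The CCAAT box was common to both phases, at 20 of 23 (87%) and 8 of 13 (61.5%), against 41.1% of all genes. All 16 mitosis genes with a CHR also held a CCAAT box, a pair found for 8.97% of all genes. In Cdk1 a CHR lay 15 bases before the start with a CCAAT box 48 bases before it, and in Kif11 these distances were 19 and 45 bases. A match is a run of letters and was not tested as a binding site.

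**Figure D1:**
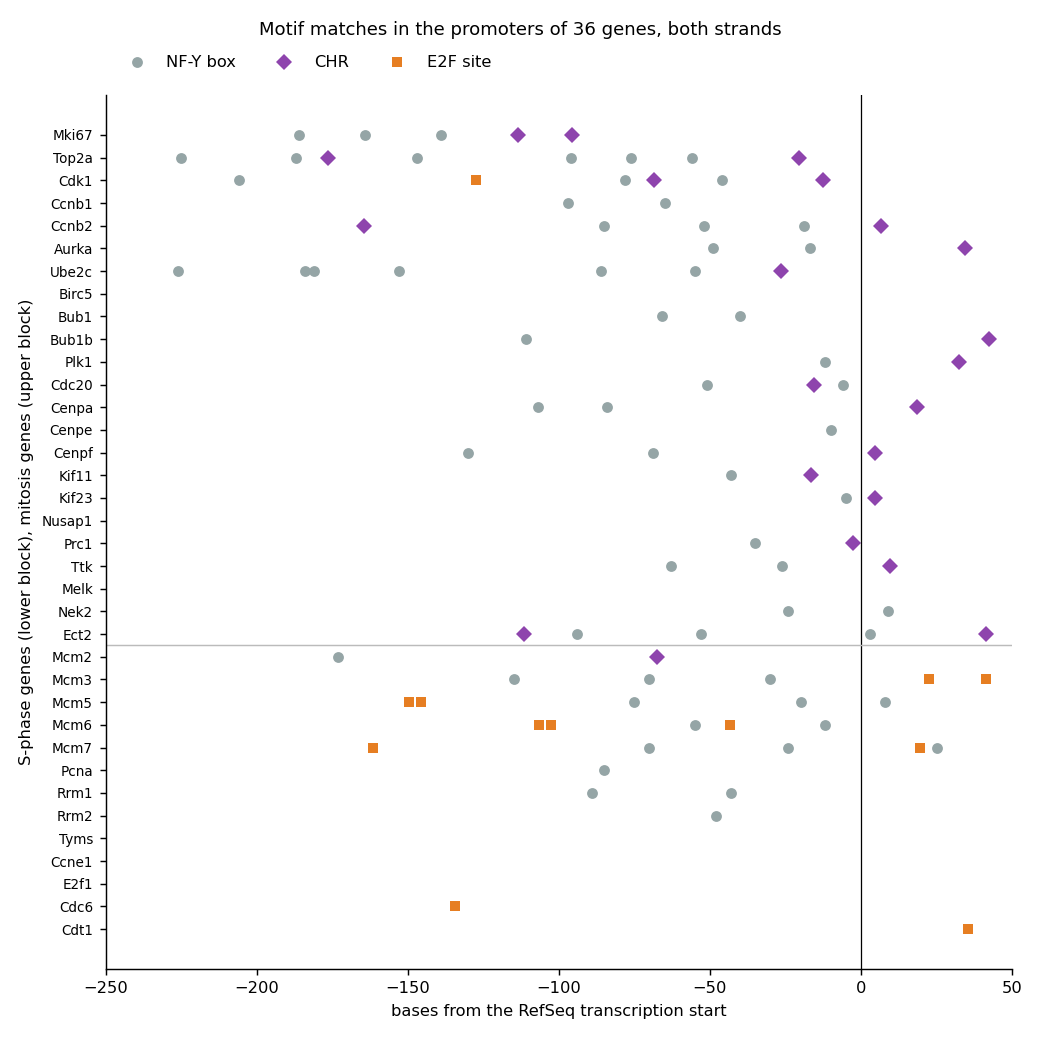
Positions of motif matches in the promoters of the 36 genes with an entry, in bases from the RefSeq transcription start (x axis), with 1 line per gene. Purple diamonds are CHR letters, grey circles are CCAAT boxes (NF-Y box in the key) and orange squares are E2F sites. CHR letters fall almost entirely in the upper block of 23 mitosis genes, and E2F sites in the lower block of 13 S-phase genes.

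The arrays of a group correlated at 0.958 or more, 52.9% to 65.4% of the probes were well above background on an array, and no spot was saturated. The sort was checked with markers. All 14 oligodendrocyte-lineage markers were above background on every O4+ array, and all 15 microglial markers on every CD11B+ array. Microglial markers were also all above background in the O4+ samples, with a mean log2 intensity of 12.66 to 13.30 in P5 PBS samples and 11.75 to 12.46 in P10 PBS samples, against medians of 15.72 at P5 and 16.07 at P10 in the CD11B+ PBS samples. In CD11B+ samples at P5, Enpp6 and Mobp of the oligodendrocyte list were not above background. The other 12 of these 14 markers were above background on every CD11B+ array at P5, and all 14 at P10. Their mean log2 intensity was 8.38 to 8.95 in CD11B+ P5 PBS and 10.39 to 11.35 in CD11B+ P10 PBS samples. In O4+ PBS samples the medians were 13.78 at P5 and 15.45 at P10. In such bulk samples, a smaller number of dividing cells and less RNA per dividing cell cannot be told apart.

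Of the 27 mitosis genes, 24 to 26 were above background on all 6 arrays of each group, and of the 16 S-phase genes 14 or 15. Aurkb, the catalytic kinase of the chromosomal passenger complex, and Ccne2, a cyclin E that starts S phase, were above background on few arrays or none. Aurkb was above background on 3 CD11B+ P5 PBS arrays, 1 CD11B+ P5 IL1B array and no other, and Ccne2 on 1 CD11B+ P10 PBS array. The probes of Ccne2 and Aurkb hold 15% and 20% of G and C, and that of Cdk1 18.3%, against a median of 40% over the probes of the set and 43.3% over all probes. Cdk1 also had wide spreads, with an SD of 0.79 in O4+ P10 PBS and 0.73 in O4+ P10 IL1B samples (log2, n = 6). The part of base composition in these values was not tested.

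**Figure D2:**
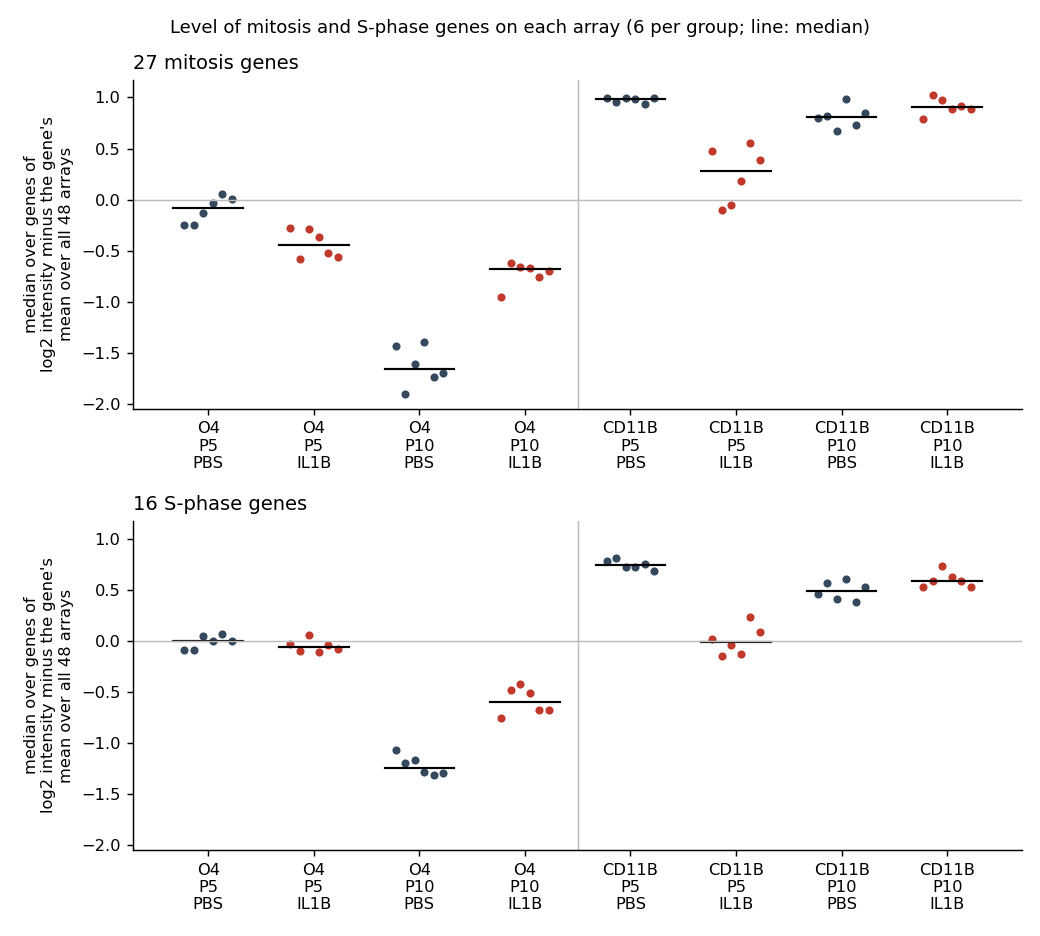
Level of the 27 mitosis genes (top) and the 16 S-phase genes (bottom) on each of 48 arrays. The y axis is the median over genes of log2 intensity minus the mean of the gene over all arrays, each point is 1 array, dark for PBS and red for IL1B, and the line is the median of 6. O4+ P10 PBS arrays lie lowest in both panels, between -1.90 and -1.39 for mitosis and between -1.31 and -1.07 for S phase.

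The first comparison asked how the control samples of both cell types differed. Mitosis and S-phase transcripts were lower in O4+ than in CD11B+ cells at both ages. At P5, 34 of the 43 genes were called lower in O4+ cells and 0 higher. A gene was called at a limma p under 0.05, adjusted over all probes, with a ratio of group medians over 1.5. The calls covered 24 mitosis and 10 S-phase genes, and among all genes 23.2% were lower and 24.2% higher. At P10, 41 were lower, 26 in mitosis and 15 in S phase, and 0 higher, where 22.4% of all genes were lower and 27.4% higher. Aurkb and Ccne2 were the exceptions. The median difference of O4+ minus CD11B+ was -0.95 at P5 (log2; -1.09 in mitosis and -0.65 in S phase) and -2.30 at P10 (-2.39 and -1.72). Over all genes it was -0.02 and 0.02. The change of this gap with age was not tested.

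Values in this comparison are log2 intensities normalized over all 48 arrays. Mki67, whose protein coats mitotic chromosomes, lay between 14.17 and 14.27 (median 14.21) in CD11B+ and between 13.11 and 13.45 (median 13.27) in O4+ cells at P5. At P10 it was 14.05 to 14.36 (median 14.23) in CD11B+ and 11.20 to 11.70 (median 11.47) in O4+ cells. No array of one cell type reached the other, and the level was 1.92-fold lower in O4+ cells at P5 (log2 -0.95, SE 0.06, limma adjusted p = 3.05e-08) and 6.78-fold lower at P10 (-2.73, SE 0.09, 9.43e-11).

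The start of mitosis showed the same order. Cdk1 was at 9.97 to 11.30 (median 11.26) in CD11B+ and at 9.28 to 9.51 (median 9.35) in O4+ cells at P5, the largest called gap of a mitosis gene at that age. Its groups did not overlap, and it was 3.75-fold lower in O4+ cells (log2 -1.68, SE 0.21, limma adjusted p = 1.67e-05). Ccnb1, which encodes cyclin B1, was less far apart, at 12.02 to 12.10 (median 12.06) against 11.48 to 11.67 (median 11.56). Its groups did not overlap, but the ratio of 1.41 stayed under 1.5 (log2 -0.50, SE 0.04, limma adjusted p = 6.65e-07). The other two probes of Ccnb1 were called lower, with log2 differences of -1.55 and -1.37. At P10 Ccnb1 was 3.90-fold lower in O4+ cells (log2 -1.89, SE 0.13, limma adjusted p = 1.08e-07).

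Topoisomerase II alpha, which untangles DNA before chromosomes part, is encoded by Top2a. It lay at 11.23 to 11.37 (median 11.29) in CD11B+ and at 9.70 to 10.20 (median 10.00) in O4+ cells at P5, and at 11.01 to 11.38 (median 11.12) and 8.05 to 8.48 (median 8.16) at P10. The groups stood apart at both ages, by 2.45-fold (log2 -1.31, SE 0.07, limma adjusted p = 1.17e-08) and 7.79-fold (-2.93, SE 0.09, 6.82e-11). Bub1b, a checkpoint protein that holds CDC20 back, had the widest called gap of a mitosis gene at P10. It was at 9.71 to 10.26 (median 10.01) in CD11B+ and at 6.50 to 7.12 (median 6.89) in O4+ cells, 8.71-fold lower in the latter (log2 -3.13, SE 0.12, limma adjusted p = 3.87e-10). For Aurkb at P5, no O4+ array and only 3 CD11B+ arrays were above background. It was called lower in O4+ cells (measured log2 -1.65, limma adjusted p = 0.00941), but the size of this gap is uncertain.

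Among S-phase genes, E2f1, an activating E2F factor, stood out at both ages. It was at 11.63 to 11.87 (median 11.71) in CD11B+ and at 8.83 to 9.21 (median 9.13) in O4+ cells at P5. At P10 it was at 11.12 to 11.48 (median 11.21) and 7.99 to 8.50 (median 8.03). The gap was 5.99-fold at P5 (log2 -2.65, SE 0.07, limma adjusted p = 3.1e-11) and 9.03-fold at P10 (-3.14, SE 0.10, 5.68e-11). Ccne1, the other cyclin E, was close in both cell types at P5, at 11.02 to 11.18 (median 11.04) in CD11B+ and 10.83 to 10.98 (median 10.91) in O4+ cells. These ranges did not overlap, though the ratio was only 1.09 (log2 -0.15, SE 0.04, limma adjusted p = 0.0133). At P10 it was 1.71-fold lower in O4+ cells (log2 -0.67, SE 0.08, limma adjusted p = 1.02e-05).

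The replication machinery followed. Mcm2, a subunit of the helicase, was 1.83-fold lower in O4+ cells at P5 (log2 -0.83, SE 0.05, limma adjusted p = 3.53e-08) and 3.48-fold lower at P10 (-1.75, SE 0.17, 1.78e-06). Pcna was 1.67-fold lower at P5 (log2 -0.77, SE 0.06, limma adjusted p = 2.98e-07) and 2.39-fold lower at P10 (-1.25, SE 0.10, 2.01e-07). Rrm2, at 13.25 to 13.48 (median 13.32) and 12.51 to 12.88 (median 12.75) at P5, differed by 1.48-fold and was not called (log2 -0.62, SE 0.07, limma adjusted p = 5.62e-06). At P10 its gap was 4.71-fold (log2 -2.18, SE 0.13, limma adjusted p = 1.88e-08). Another probe of Cdc6, the origin licensing factor, had a log2 difference of 0.26 at P5 and was not called, where the brightest probe was called with -0.65.

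Cell cycle genes outside the set were counted in the same way. Of 81 other mitosis genes, 63 were lower in O4+ cells at P5 and 0 higher, and of 56 other replication genes 31 were lower and 1 higher, Rpa3 (1.502-fold, a subunit of the protein that coats single-stranded DNA). At P10, 74 of 81 and 39 of 56 were lower, and 0 and 1 higher. The largest called gap was that of Sgol2, a protector of centromeric cohesion, at 11.99-fold lower in O4+ cells, of which 5 of 6 arrays were above background. Brca1, a DNA repair gene, was 1.94-fold higher in O4+ cells at P10. The PBS samples of both cell types shared no slide at P10. On the scan day they shared, with 6 CD11B+ and 5 O4+ arrays, the median of the 43 genes was -2.33. On the slide shared at P5, with only 1 CD11B+ and 2 O4+ arrays, it was -0.94.

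**Figure D3:**
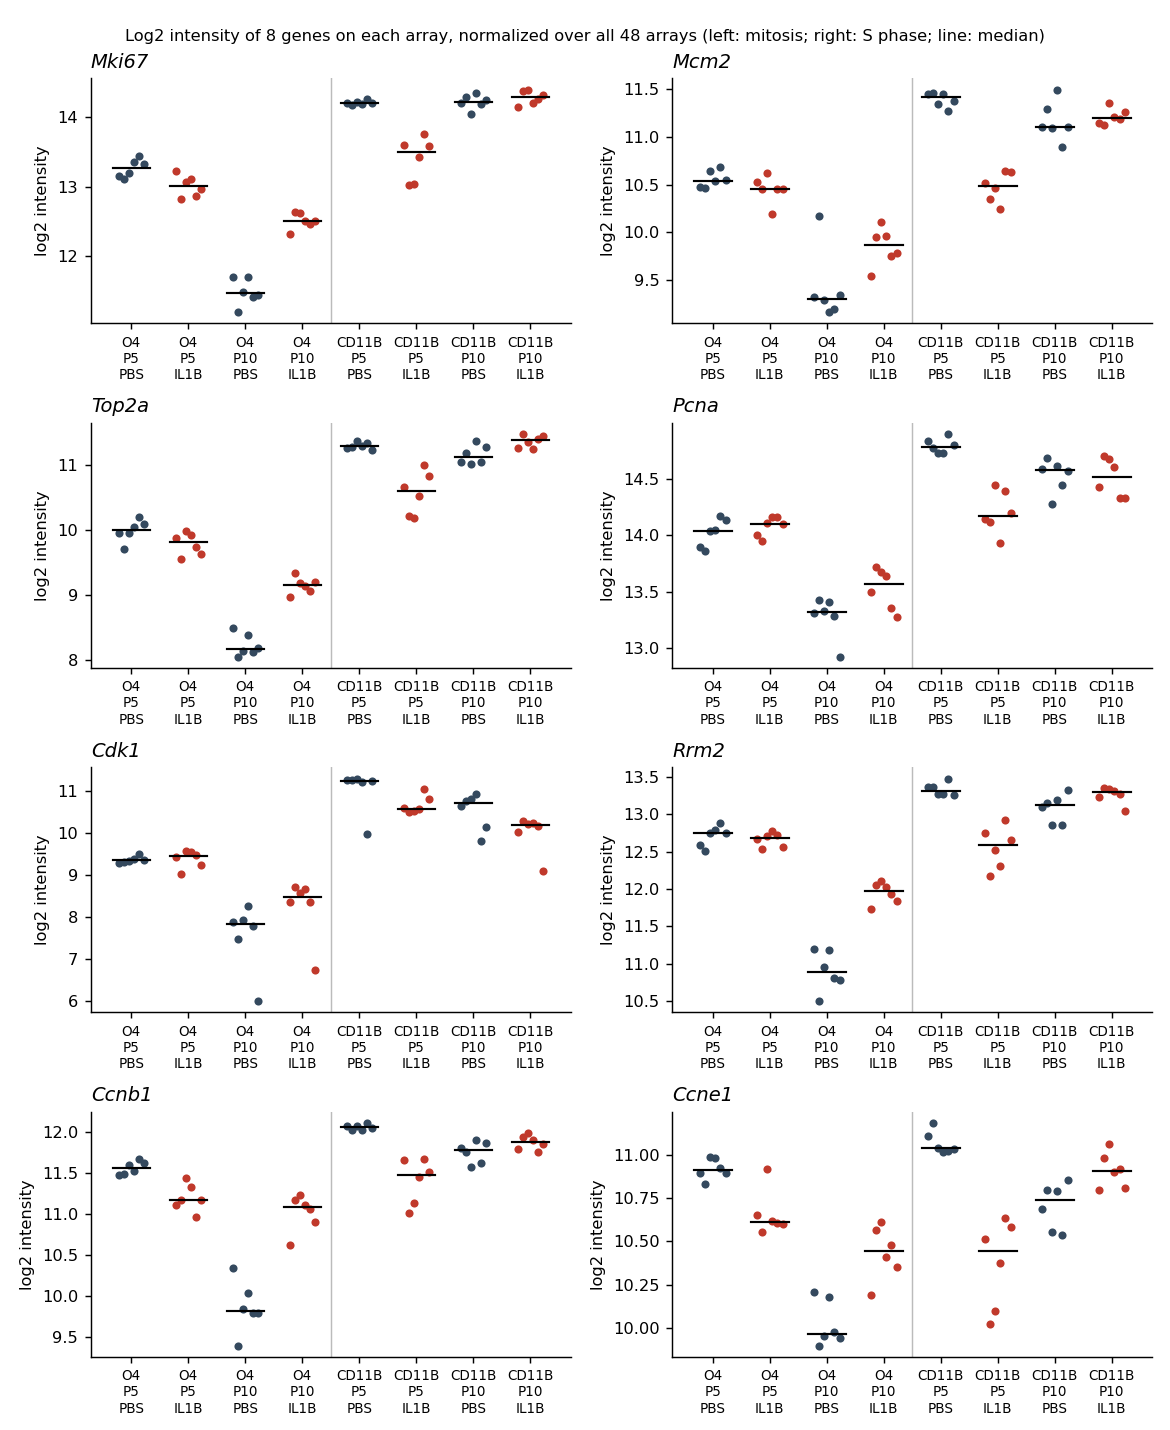
Log2 intensity (y axis, normalized over all 48 arrays) of 4 mitosis genes (left) and 4 S-phase genes (right) on each array, with dark points for PBS, red points for IL1B and a line at the median of 6. In O4+ cells the median of the P10 PBS arrays is lowest for each gene, and the P10 IL1B arrays lie above all of them for Mki67, Top2a, Ccnb1 and Rrm2. The Cdk1 panel shows single arrays far below the others in 4 groups.

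Between P5 and P10, the second comparison in PBS pups, these genes fell in O4+ cells. Of the 43, 41 were called lower at P10, 26 in mitosis and 15 in S phase, and 0 higher, while 12.6% of all genes were lower and 8.54% higher. Only Aurkb and Ccne2 were not called. The median difference of P10 minus P5 was -1.48 (log2; -1.52 in mitosis and -1.0 in S phase), beside -0.01 over all genes. In CD11B+ cells 1 gene was called lower, Cdc6, and 0 higher, with 4.69% of all genes lower and 4.77% higher, and the median was -0.22 (-0.19 and -0.27). At any fold, 21 genes passed the adjusted p in CD11B+ cells, all lower, 11 in mitosis and 10 in S phase, where 12.6% of all genes were lower and 15.6% higher under that rule.

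Values from here on are log2 intensities normalized within each cell type, over its 24 arrays. In O4+ cells Mki67 was at 13.09 to 13.43 (median 13.25) at P5 and at 11.27 to 11.76 (median 11.53) at P10. These ranges stood apart, and the fall was 3.30-fold (log2 -1.70, SE 0.09, limma adjusted p = 1.12e-07). In CD11B+ cells it was at 14.21 to 14.31 (median 14.25) and 14.08 to 14.40 (median 14.27), with overlapping ranges and a log2 difference of 0.01 (SE 0.05, limma adjusted p = 0.932).

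The checkpoint kinase gene Ttk lay at 5.07 to 5.96 (median 5.46) at P5 and at 2.05 to 4.31 (median 3.56) at P10 in O4+ cells. It was called lower (limma adjusted p = 0.000511), but only 1 of 6 arrays was above background at P10, so the measured ratio of 3.75 rests on signals under the background and its size is uncertain. Cdk1 went from 9.48 to 9.70 (median 9.55) down to 6.26 to 8.51 (median 8.07), a 2.78-fold fall (log2 -1.76, SE 0.31, limma adjusted p = 0.000817). A probe of Cdk1 at another place in the transcript had a log2 difference of -0.43 and was not called. Top2a fell 3.38-fold (log2 -1.68, SE 0.09, limma adjusted p = 1.32e-07) and Ccnb1 3.099-fold (-1.59, SE 0.12, 1.33e-06), both without overlap of the groups.

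Among S-phase genes Rrm2 fell most in O4+ cells, from 12.53 to 12.88 (median 12.76) at P5 down to 10.62 to 11.27 (median 10.98) at P10. The groups were far apart, and the fall was 3.44-fold (log2 -1.73, SE 0.11, limma adjusted p = 4.3e-07). The helicase genes Mcm2 to Mcm7 fell by 0.59 to 1.51 (log2), with Mcm7 at the low and Mcm3 at the high end, and all 6 were called. Pcna fell by 1.64-fold (log2 -0.73, SE 0.09, limma adjusted p = 4.91e-05) and Ccne1 by 1.84-fold (-0.83, SE 0.06, 1.03e-06). The licensing and firing genes Cdc6, Cdt1 and Gins1 fell by 1.54, 1.63 and 1.16 (log2). In CD11B+ cells Cdc6 was at 6.95 to 7.62 (median 7.51) at P5 and at 6.80 to 7.18 (median 6.91) at P10. These ranges overlapped, and the ratio was 1.52 (log2 -0.51, SE 0.11, limma adjusted p = 0.00768). Its other probe, at -0.48, was not called.

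Of the other mitosis genes, 67 of 81 were lower and 3 higher at P10 in O4+ cells, led by Esco2 (3.98-fold lower, a cohesin acetyltransferase) and Depdc1b (1.78-fold higher). Of the other replication genes 33 of 56 were lower and 2 higher, from Chaf1b (3.16-fold lower, a chromatin assembly factor) to Brca1 (1.91-fold higher). In the same O4+ comparison 13 of 15 microglial markers were lower and 1 higher (median log2 -1.31), and 3 of 6 progenitor markers were lower (-0.71). Of 8 endothelial markers 4 were lower and 0 higher (-0.72), and 8 of 14 oligodendrocyte-lineage markers were higher (0.87). In CD11B+ PBS samples 12 of 14 oligodendrocyte-lineage markers were higher at P10 (median log2 1.38) and 6 of 8 endothelial markers lower (-0.62). There 4 of 15 microglial markers were higher and 0 lower (0.20). The part of these shifts in the age differences of either cell type was not tested. P5 and P10 samples shared no slide and no scan day, so that differences of age and of scan day cannot be told apart.

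**Figure D4:**
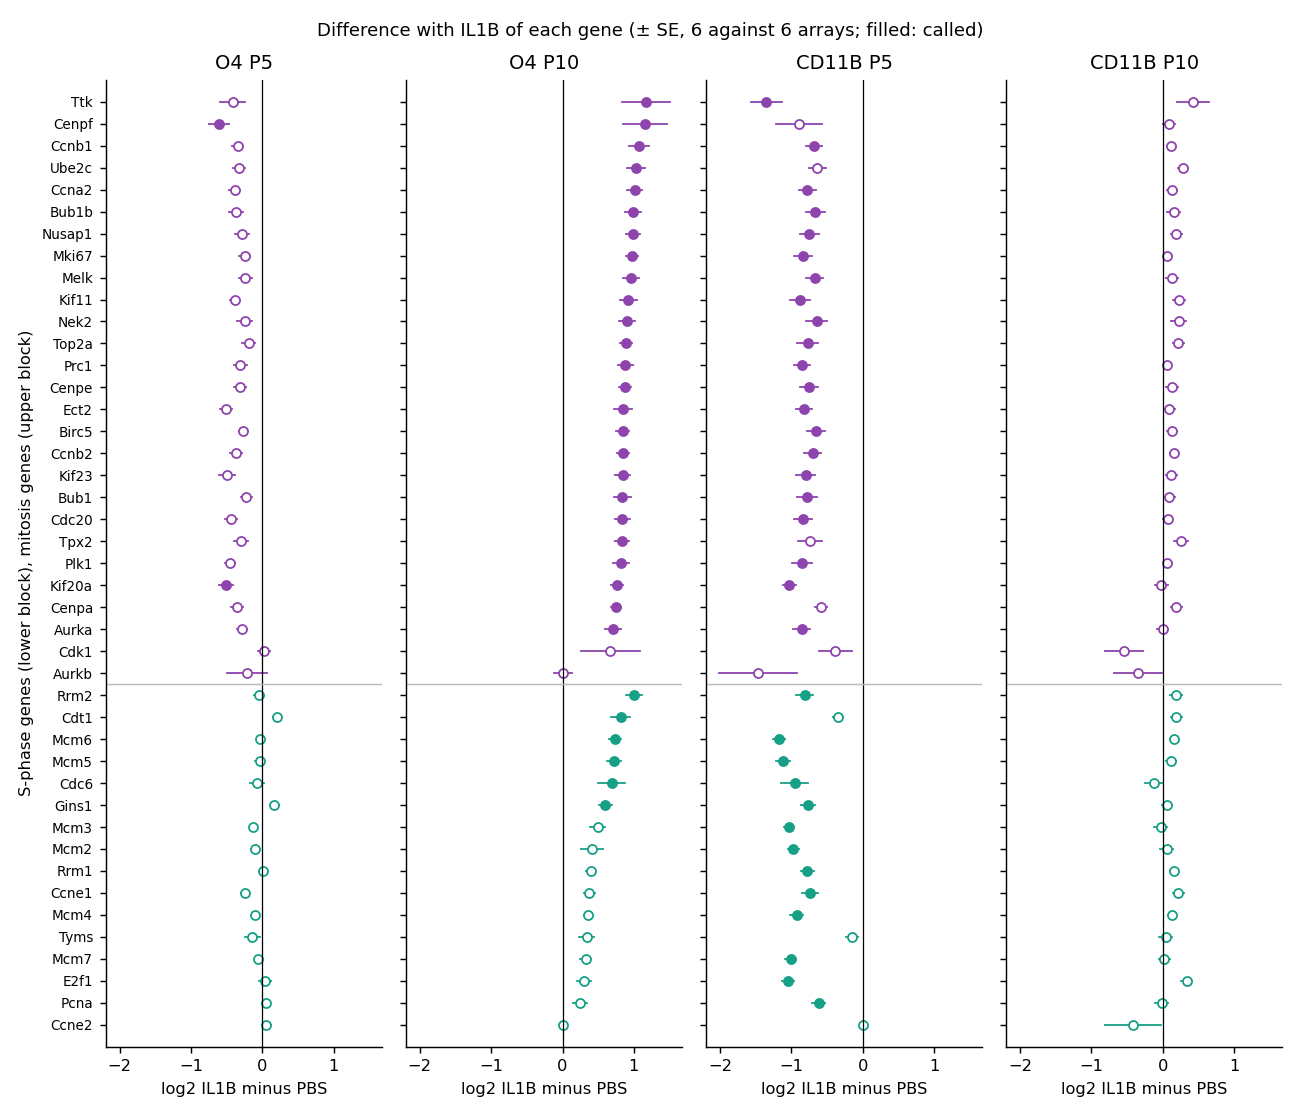
Log2 difference of IL1B minus PBS (x axis, ± SE, 6 against 6 arrays) for each of the 43 genes in the 4 pairs of groups, with mitosis genes in purple (upper block) and S-phase genes in green (lower block). Filled points passed the call. Filled points are to the right of 0 in O4+ P10, to the left in CD11B+ P5, and 2 stand left of 0 in O4+ P5 and none in CD11B+ P10.

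The remaining comparisons asked what IL1B changed. In O4+ cells at P5, the end of the injections, 2 of 43 genes were called lower and 0 higher, with 1.80% of all genes lower and 4.94% higher. Both were mitosis genes, Cenpf, a kinetochore protein, and Kif20a, a kinesin of the midzone. The median difference of IL1B minus PBS was -0.25 (log2), with -0.33 in mitosis and -0.04 in S phase, and -0.06 over all genes. At any fold, 19 genes passed the adjusted p, 17 mitosis genes and Ccne1 lower and Cdt1 higher, where 16.2% of all genes were lower and 9.27% higher under that rule.

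Cenpf was at 5.07 to 5.74 (median 5.44) in PBS and at 4.42 to 5.17 (median 4.75) in IL1B samples. The lowest PBS array lay inside the IL1B range, and the level was 1.61-fold lower (log2 -0.61, SE 0.14, limma adjusted p = 0.0116). Kif20a, at 10.16 to 10.60 (median 10.44) and 9.74 to 10.14 (median 9.84), did not overlap and was 1.52-fold lower (log2 -0.51, SE 0.09, limma adjusted p = 0.00319). With slide as a block neither was called and the count was 0, at a median of -0.29. Ccnb1 stood apart by less, from 11.54 to 11.72 (median 11.61) in PBS and 11.05 to 11.50 (median 11.24) in IL1B samples (1.29-fold, log2 -0.35, SE 0.07, limma adjusted p = 0.0063). Another probe of Tpx2, a spindle assembly factor, was called lower (log2 -0.57), where the brightest had -0.30.

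S-phase genes of O4+ cells lay together at P5. Mcm2 was at 10.59 to 10.79 (median 10.65) in PBS and 10.33 to 10.73 (median 10.58) in IL1B samples (log2 -0.10, SE 0.07, limma adjusted p = 0.351). Pcna was at 13.84 to 14.13 (median 14.02) and 13.93 to 14.13 (median 14.07), with a difference of 0.05 (SE 0.06, limma adjusted p = 0.596). Rrm2 differed by -0.05 (SE 0.06, limma adjusted p = 0.672). These 3 ranges overlapped throughout. In the same samples 12 of 15 microglial markers were higher with IL1B (median log2 1.08) and their mean level rose from 12.66 to 13.30 in PBS to 14.01 to 14.46 in IL1B samples. Also 8 of 9 neutrophil and monocyte markers were higher (median log2 3.27) and 5 of 8 endothelial markers lower (-0.85). The part of these cell types in the values was not tested.

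In O4+ cells at P10, the order was the reverse. With IL1B 31 of 43 genes were higher and 0 lower, 25 of 27 mitosis genes and 6 of 16 S-phase genes, whereas 3.58% of all genes were higher and 1.70% lower. At any fold 36 genes passed the adjusted p, all higher, the same 25 in mitosis but 11 in S phase, where 8.54% of all genes were higher and 6.42% lower under that rule. The median difference was 0.83 (log2), with 0.88 in mitosis, 0.40 in S phase and -0.01 over all genes. All IL1B arrays were above all PBS arrays for 24 mitosis and 8 S-phase genes, as for 4.83% of all genes, and for 4.15% of all genes they were below. All groups of mitosis roles took part. The 5 checkpoint and anaphase genes rose by 0.84 (Cdc20) to a measured 1.16 (Ttk) and the 7 spindle and cytokinesis genes by 0.76 (Kif20a) to 0.98 (Nusap1), all called. Of the 8 genes of mitotic entry 7 were called, with Cdk1 at 0.67 and Ccnb1 at 1.07 as the ends, and of the 5 centromere and passenger genes 4.

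Ccnb1 had the largest called rise by ratio of medians. It was at 9.59 to 10.47 (median 9.98) in PBS and at 10.73 to 11.30 (median 11.17) in IL1B samples. Every IL1B array was above every PBS array, and the rise was 2.27-fold (log2 1.07, SE 0.14, limma adjusted p = 0.00195). Mki67, from 11.27 to 11.76 (median 11.53) up to 12.35 to 12.65 (median 12.52), also stood apart and rose 1.99-fold (log2 0.97, SE 0.09, limma adjusted p = 0.000713). Top2a went from 8.29 to 8.72 (median 8.40) up to 9.18 to 9.53 (median 9.36) and rose 1.94-fold (log2 0.88, SE 0.08, limma adjusted p = 0.000767). The IL1B samples at P10 thus lay between the PBS samples of P10 and those of P5 for these 3 genes.

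Ttk and Cenpf were called higher with measured log2 differences of 1.16 each, whose size is uncertain since the PBS signals were mostly under the background. Ttk was above background on 1 of 6 PBS and 5 of 6 IL1B arrays, at 2.05 to 4.31 (median 3.56) and 3.90 to 4.98 (median 4.70), and its groups overlapped (SE 0.33, limma adjusted p = 0.0468). Cenpf was above background on 1 and 6 arrays (SE 0.31, limma adjusted p = 0.0355). Cdk1, the kinase of mitotic entry, was at 6.26 to 8.51 (median 8.07) in PBS and at 7.0 to 8.94 (median 8.70) in IL1B samples, where replicate 6 was the lowest in both groups. These replicate 6 arrays lay on the same slide, apart from the other arrays of their groups. The ratio of medians of Cdk1 was 1.55, but the groups overlapped and it was not called (log2 0.67, SE 0.42, limma adjusted p = 0.38). Other probes of Birc5 and Ect2 were not called, at 0.80 and 0.92, beside called values of 0.85 and 0.85.

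In S phase the rise was uneven. Rrm2 rose most, from 10.62 to 11.27 (median 10.98) up to 11.79 to 12.15 (median 12.02), with no overlap, by 2.06-fold (log2 1.00, SE 0.11, limma adjusted p = 0.00124). The 3 licensing and firing genes rose, Cdt1 by 0.81, Cdc6 by 0.69 and Gins1 by 0.60 (log2). Of the helicase genes Mcm6 and Mcm5 were called, and the 6 ranged from 0.32 (Mcm7) to 0.73 (Mcm6). Another probe of Mcm3 was called at 0.69, where the brightest had 0.49. Mcm2, at 9.37 to 10.32 (median 9.50) in PBS and 9.73 to 10.26 (median 10.03) in IL1B samples, overlapped because PBS replicate 2 lay above the other PBS arrays (log2 0.41, SE 0.16, limma adjusted p = 0.125). Pcna had a difference of 0.25 (SE 0.10, limma adjusted p = 0.166) with overlap. Ccne1 went from 10.06 to 10.35 (median 10.12) up to 10.33 to 10.72 (median 10.56) and stayed under the fold (1.36-fold, log2 0.37, SE 0.08, limma adjusted p = 0.0127).

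Outside the set 53 of 81 other mitosis genes were higher and 0 lower with IL1B in O4+ cells at P10, led by Dlgap5 (2.45-fold, a microtubule protein of the spindle), with a median of 0.70. Of 56 other replication genes 11 were higher and 0 lower, led by Mcm10 (1.78-fold, an initiation factor), with a median of 0.33. On the 2 slides that held both treatments the median of the 43 genes was 0.74 (5 PBS and 2 IL1B arrays) and 0.78 (1 and 1). Markers of other cells moved in the same samples. Microglial markers were higher for 8 of 15 (median log2 0.64, mean level 11.75 to 12.46 in PBS and 12.17 to 12.83 in IL1B), progenitor markers for 2 of 6 (0.52), astrocyte markers for 3 of 6 (0.57) and neutrophil and monocyte markers for 6 of 9 (1.82), of which Mpo, Ngp, Ltf and Ccr2 were not above background in PBS. The part of these cells in the rise was not tested.

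CD11B+ cells at P5 moved the other way. With IL1B 34 of 43 genes were lower and 0 higher, 21 mitosis and 13 S-phase genes, whereas 7.55% of all genes were lower and 5.38% higher. The median difference was -0.78 (log2), with -0.78 in mitosis, -0.87 in S phase and -0.05 over all genes. With slide as a block 8 genes were called lower, 1 in mitosis and 7 in S phase, at a median of -0.74. The share of all genes called under that block is not given here. On the 1 slide with both treatments, which held 1 PBS and 4 IL1B arrays, the median of the 43 genes was -0.74. On the scan day with 5 and 4 arrays it was -0.75.

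All 6 helicase genes fell, by 0.93 (Mcm4) to 1.17 (Mcm6) on the log2 scale. Mcm6 was at 14.63 to 14.95 (median 14.74) in PBS and at 13.39 to 13.83 (median 13.61) in IL1B samples, far apart, and fell 2.18-fold (log2 -1.17, SE 0.08, limma adjusted p = 2.43e-06). Mcm2 fell 1.97-fold, from 11.21 to 11.40 (median 11.35) down to 10.10 to 10.54 (median 10.37) (log2 -0.97, SE 0.08, limma adjusted p = 5.93e-06). E2f1 fell 1.95-fold (log2 -1.04, SE 0.08, limma adjusted p = 5.93e-06), Pcna 1.56-fold (-0.62, SE 0.09, 0.000337), Rrm2 1.69-fold (-0.81, SE 0.12, 0.000541) and Ccne1 1.54-fold (-0.74, SE 0.11, 0.000643). None of these groups overlapped. Tyms, which makes thymidylate, had a difference of -0.15 and was not called, nor was Cdt1 at -0.35. Another probe of Ccne1 was not called, at -0.47.

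Of the called mitosis genes Ttk had the lowest ratio of medians. It was at 5.41 to 5.76 (median 5.59) in PBS and at 3.50 to 5.01 (median 4.20) in IL1B samples, of which 3 of 6 were above background (2.61-fold, log2 -1.35, SE 0.21, limma adjusted p = 0.000763). Aurkb had a log2 difference of -1.47 with 3 PBS arrays and 1 IL1B array above background and was not called (SE 0.55, limma adjusted p = 0.0854). Mki67 went from 14.21 to 14.31 (median 14.25) down to 13.03 to 13.78 (median 13.52) and Top2a from 11.15 to 11.31 (median 11.22) down to 10.04 to 10.92 (median 10.49). The PBS arrays were tight and the IL1B arrays spread widely, without overlap, and the falls were 1.65-fold (log2 -0.83, SE 0.12, limma adjusted p = 0.000514) and 1.66-fold (-0.77, SE 0.14, 0.002). Ccnb1 fell 1.52-fold (log2 -0.68, SE 0.12, limma adjusted p = 0.00127). Cdk1 was at 11.15 or more on all PBS arrays but replicate 5, at 9.81, and at 10.39 to 10.97 (median 10.48) with IL1B, and was not called (log2 -0.38, SE 0.24, limma adjusted p = 0.324).

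The spindle and cytokinesis genes fell by 0.74 (Tpx2, not called) to 1.03 (Kif20a), 6 of 7 called. Of the centromere and passenger genes 2 of 5 were called, Cenpe and Birc5, and the other probes of Birc5, at -0.61 and -0.40, were not. Ube2c missed the call with its brightest probe and passed it with another, both at -0.64. Of other mitosis genes 57 of 81 were lower, led by Esco2 (2.27-fold), and of other replication genes 37 of 56, led by Brca1 (3.35-fold, 2 of 6 IL1B arrays above background), and 0 were higher in either list. All 9 neutrophil and monocyte markers were higher with IL1B in these samples (median log2 3.59, mean level 9.36 to 10.49 in PBS and 12.64 to 13.44 in IL1B), 5 of 8 endothelial markers were lower and 1 higher, and the median of the 15 microglial markers was -0.08. The part of these cells in the fall was not tested.

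In CD11B+ cells at P10, 0 of 43 genes were called in either direction by limma, with 1.49% of all genes higher and 1.23% lower. At an unadjusted limma p under 0.05 there were 14 of 43, beside 12790 of all 55681 probes. The methods' t-test with adjustment also gave 0. The median was 0.12 (log2; 0.13 in mitosis and 0.08 in S phase). At any fold 2 passed, Ube2c and E2f1, both higher, where 4.34% of all genes were higher and 4.26% lower under that rule. E2f1 was at 11.04 to 11.42 (median 11.13) in PBS and at 11.35 to 11.71 (median 11.53) in IL1B samples, with a small overlap (1.31-fold, log2 0.33, SE 0.08, limma adjusted p = 0.0307). Mki67, at 14.08 to 14.40 (median 14.27) and 14.18 to 14.44 (median 14.34), differed by 0.06 (SE 0.06, limma adjusted p = 0.609). Mcm2 differed by 0.05 (SE 0.09, limma adjusted p = 0.784). Among probes that did not stand for their gene, 1 of Ccnb1 was called higher at 0.59 and 1 of Cdk1 lower at -1.83, the latter above background on 2 of 6 PBS and 0 of 6 IL1B arrays. In the same samples 6 of 14 oligodendrocyte-lineage markers were lower with IL1B (median log2 -0.68) and 0 higher, and 0 of 15 microglial markers were called. The part of these cells in the values was not tested.

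Whether the responses themselves differed was tested by interaction terms in limma, with no fold threshold. In O4+ cells the response at P10 was above that at P5 for 37 of 43 genes (25 mitosis, 12 S phase) and below for 0, where 11.9% of all genes were above and 6.94% below. The median of the difference of responses was 1.10 (log2). It was 1.42 for Ccnb1 (SE 0.16, limma adjusted p = 6.07e-06), 1.22 for Mki67 (SE 0.12, 1.08e-06) and 1.05 for Rrm2 (SE 0.13, 1.99e-05), and smaller for Mcm2 (0.51, SE 0.17, 0.0533) and Pcna (0.19, SE 0.12, 0.357). In CD11B+ cells 38 were above (24 mitosis, 14 S phase) and 0 below, where 16.3% of all genes were above and 7.90% below, with a median of 0.92. With slide as a block 12 passed, 4 in mitosis and 8 in S phase, at a median of 0.87. The share of all genes under that block is not given here. Mcm6 had 1.33 (SE 0.10, limma adjusted p = 2.46e-08) and E2f1 1.38 (SE 0.12, 6.68e-08).

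The responses of both cell types were compared in the same manner. At P5 the response of O4+ cells was above that of CD11B+ cells for 21 genes and below for 0, and these held 14 of 16 S-phase but 7 of 27 mitosis genes, where 11.7% of all genes were above and 5.19% below. The median was 0.43 (log2). All 6 helicase genes passed, at 0.77 (Mcm4) to 1.10 (Mcm6), and the 8 genes of mitotic entry gave 0.28 (Ccnb2) to 0.52 (Aurka) with 1 passing. With slide as a block 9 passed and with scan date 13, all of them S-phase genes. None of the 7 mitosis genes passed in either, while the median of mitosis genes was 0.39 and 0.34, beside 0.37 without a block. No share of all genes under these blocks is given here, so the drop cannot be set against that of all genes. At P10 it was above for 32 genes, 24 of 27 in mitosis and 8 of 16 in S phase, and below for 0, where 6.21% of all genes were above and 4.57% below. The median was 0.74. A slide block left 23 mitosis and 5 S-phase genes. Mki67 had 0.96 (SE 0.11, limma adjusted p = 8.72e-05) and Rrm2 0.87 (SE 0.15, 0.00137), while E2f1 had -0.01 (SE 0.13, 0.974). Beside this, other probes differed in the test for Ect2 and Kif23 at P5, which passed at 1.06 and 1.18, where the brightest had 0.24 and 0.25.

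The balance of S phase and mitosis was read on each array as the median of S-phase genes minus that of mitosis genes, each gene taken relative to the P5 PBS arrays of its cell type (log2). In O4+ cells it was -0.07 to 0.10 (median 0.00) in P5 PBS and 0.13 to 0.40 (median 0.33) in P5 IL1B samples. It was 0.29 to 0.75 (median 0.40) in P10 PBS and -0.02 to 0.15 (median 0.03) in P10 IL1B samples. Thus the mitosis genes were low relative to S-phase genes in P5 IL1B and P10 PBS samples. The balance of P5 PBS samples lies near 0 by construction. Its overlap with that of P10 IL1B samples means that both phases were lower there by similar amounts. Their medians were -0.55 for mitosis and -0.53 for S phase in P10 IL1B samples, relative to P5 PBS. In CD11B+ cells it was -0.05 to 0.07 in P5 PBS, -0.36 to 0.08 in P5 IL1B, -0.15 to -0.04 in P10 PBS and -0.16 to -0.05 in P10 IL1B samples, and these ranges overlapped in each pair of treatments. These are descriptions of the arrays, without a test.

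**Figure D5:**
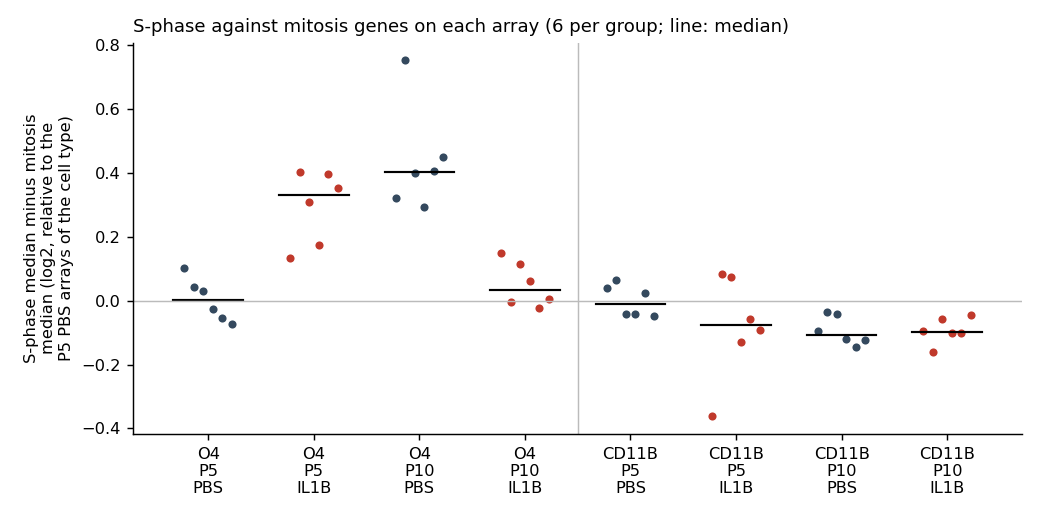
S-phase median minus mitosis median (log2, y axis) on each of 48 arrays, relative to the P5 PBS arrays of the same cell type, with dark points for PBS, red points for IL1B and a line at the median of 6. O4+ P5 IL1B and O4+ P10 PBS arrays lie above 0, and the other groups lie near or below it.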

How the data were processed

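Gene expression was measured on 48 one-color Agilent arrays. Per the labels and the file headers, the authors labelled total RNA with Cy3, hybridized 1 array per sample and had Feature Extraction 10.7.3.1 write each spot's background-subtracted intensity (annotation in mm9). The deposited matrix holds the ratio of that intensity to the array median and was an alternative. From the deposited intensities, log2 values were quantile-normalized within each cell type (24 arrays), or across the 48 arrays for comparisons of cell types, without control spots and 278 spots marked non-uniform. No filter on dim probes was applied. Groups of 6 were set against each other by limma (version 3.58.1, R 4.3.3), with Benjamini-Hochberg adjustment over 55681 probes. A call needed an adjusted p under 0.05 and a ratio of medians over 1.5. The depth of an array is fixed by its design, and 6 arrays per group limit the precision. Interaction terms used the adjusted p alone. The labels do not state separate litters, so p-values measure the spread between samples.

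The brightest probe stood for a gene. Values by array are given for Mki67, Top2a, Cdk1, Ccnb1, Mcm2, Pcna, Rrm2 and Ccne1, and for the largest called rise and fall of each phase. Other genes named were read after their values were seen. The genes, the lists and the markers were chosen with earlier results of these data known, and the role groups after them. The scripts were tested on simulated data. Alternatives were other scalings, background correction by normexp with an offset of 50, slide, scan date and replicate number as blocks, other probe rules, the methods' t-test and leaving out each array.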

Additional observations from a re-analysis of the deposited data

Results flagged for a closer look

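Some arrays of O4+ and CD11B+ cells stood far from the other 5 of their group for a gene described by array. The measure is the gap to the nearest array as a share of the whole range, and 7 of 80 groups passed the limit of Dixon's test for 6 arrays. The 80 were the groups of the genes described by array and of the medians of both phases. They share arrays, so the rate of about 1 in 20 for separate groups does not apply to them. Cdk1 accounted for 4 of the 7. O4+ P10 PBS replicate 6 was lowest for Cdk1 (6.26 against 7.72 to 8.51, share 0.651) and for Pcna (12.92 against 13.27 to 13.42, share 0.699). O4+ P10 IL1B replicate 6 was lowest for Cdk1 (7.0 against 8.59 to 8.94, share 0.818), as were CD11B+ P5 PBS replicate 5 (9.81 against 11.15 to 11.23, share 0.94) and CD11B+ P10 IL1B replicate 6 (8.89 against 9.88 to 10.15, share 0.79). The replicate 6 arrays named here lay on the same slide, which held no other array. CD11B+ P5 PBS replicate 5 was the only array of its slide. The part of the slide in these values was not tested. O4+ P10 PBS replicate 2 was highest for Mcm2 (10.32 against 9.37 to 9.54, share 0.825). O4+ P5 IL1B replicate 3 was highest for Ccne1 (11.01 against 10.66 to 10.76, share 0.729).

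The response to IL1B differed between groups by the interaction term of limma. It was higher at P10 than at P5 for 37 of 43 genes in O4+ cells and for 38 in CD11B+ cells, beside 11.9% and 16.3% of all genes. In CD11B+ cells 34 genes were called lower with IL1B at P5 and 0 were called at P10. The response was higher in O4+ than in CD11B+ cells for 21 genes at P5 and for 32 at P10, beside 11.7% and 6.21% of all genes. With slide as a block these 4 counts became, in the same order, 34, 12, 9 and 28, without a share of all genes to set beside them. No gene of the set passed in the other direction, beside 6.94%, 7.90%, 5.19% and 4.57% of all genes.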

How the results depend on the processing

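In total, the calls in O4+ cells at P10 stayed within 1.5 times under every alternative run. So did those of the PBS comparisons in which 34 or 41 genes were called. Small counts did not, and the 6 S-phase genes in O4+ cells at P10 became 11 with no fold threshold and 4 with normexp. For age in either cell type, slide and scan date could enter only as random terms, since P5 and P10 shared none. The same held for slide between cell types at P10. Such terms cannot part these groups from their slides or scan days, so counts kept under them are no check on either. For IL1B against PBS in O4+ cells at P5, the 2 called genes became 1 with scaling to the 75th percentile, with normexp, with the replicate number as a block and with all 4 groups in 1 fit, 0 with slide as a block and 19 with no fold threshold. Without 1 array the count was 1 to 3, and PBS replicates 4, 5 and 6 and IL1B replicates 5 and 6 moved it. In CD11B+ cells the 34 genes lower at P5 became 8 with slide as a block, and the 0 at P10 became 2 with no fold threshold. Leaving out 1 array gave 27 to 30 genes in O4+ cells at P10, 26 to 38 and 0 to 0 in CD11B+ cells at P5 and P10, 41 for age in O4+ cells, 32 to 35 and 41 for cell type, and 36 to 38, 38 to 39, 16 to 23 and 29 to 33 for the interactions. For age in CD11B+ cells the 1 gene became 0 with normexp, with scan date as a block and with the median over probes, 2 with all 4 groups in 1 fit, 21 with no fold threshold and 0 to 2 without 1 array (P5 PBS replicate 5 and P10 PBS replicates 1, 2, 4 and 5). With slide as a block, the interaction of age gave 12 of 38 in CD11B+ cells. That of cell type at P5 gave 9 of 21, or 13 with scan date, with 0 of its 7 mitosis genes in both. For blocks no share of all genes is given, so a drop in a count cannot be set against that of all genes. The interaction of age in CD11B+ cells for Cdk1, -0.16, was 0.78 with the median over its probes. The cause of these changes was not tested.

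Scaling to the 75th percentile moved the median of all genes to -0.14 in O4+ cells at P10, 0.18 for age in O4+ cells, -0.33 for cell type at P5 and -0.15 for the interaction of cell type at P10. With slide as a block 71 of 102 calls of named genes were kept. Deviations of samples with the same replicate number correlated over 0.1 in 5 of 6 pairs between both cell types at P5 (0.04 to 0.365) and at P10 (-0.055 to 0.353), between treatments in O4+ cells at P5 (0.087 to 0.314) and between ages in CD11B+ cells (-0.233 to 0.419), and in 1 to 4 pairs elsewhere. No comparison had all 6, so the numbers were not read as pairs. Between cell types 8 and 9 of 12 samples correlated best with their own number, a hint of pairing from the data. With the replicate number as a block the counts were 30 in O4+ cells at P10, 34 and 0 in CD11B+ cells, 41 and 1 for age, 34 and 41 for cell type and 37, 38, 20 and 33 for the interactions. Both cell types came from the same animals, but the labels do not say that equal numbers mark them.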
